A study of Homo sapiens with 6 samples.

Results

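The S100 calcium-binding proteins described here are the products of 10 genes, S100A2, S100A3, S100A4, S100A6, S100A8, S100A9, S100A10, S100A11, S100A14 and S100A16. They were taken as every probe set whose single gene symbol in the platform annotation was one of these, which gave 13 of the 54613 probe sets that were not controls. Each was read on 6 single-colour Affymetrix arrays of MDA-MB-231, a widely used line of triple-negative human breast carcinoma cells with a mesenchymal look. In 3 samples (the GFP control) the cells carried a lentivirus for enhanced green fluorescent protein (GFP) alone, and in 3 one for GATA3, a transcription factor of luminal breast cells, together with GFP. Both groups were sorted for GFP and kept in serum-supplemented medium, so transduction, sorting and GFP were common to them. RNA was collected 2 days after the cells were seeded. The labels name no promoter for the introduced sequences and leave open whether each group's 3 samples came from separate cultures. The p-values therefore measure the spread between these samples, which may be technical.

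S100 proteins are small proteins with paired EF-hand motifs, the helix-loop-helix fold that holds calcium. They have no enzyme activity of their own. They mostly form dimers that open on binding calcium and then grip a target protein, often an annexin or a part of the cytoskeleton. Some leave the cell and signal through surface receptors such as TLR4. Most of the genes lie in a cluster on chromosome 1, partly among genes of skin differentiation, and S100A4 in particular is known as a mesenchymal and metastasis-associated gene in breast cancer.

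The members that moved did so in opposite directions, so the stretches of DNA before their start sites are shown, 3 from genes that fell and 2 from genes that rose. Each is the 250 bases before a RefSeq transcript start (GRCh38.p14, minus strand, written 5′ to 3′). Where a gene has several starts, the most upstream is shown. Capitals mark 3 kinds of motif, searched on both strands. An AP-1 motif was taken as TGANTCA with guanine or cytosine at N. The TATA box and the GATA motif are spelled out beside their counts. The first 3 lie at chr1:153565845-153566094 for S100A2, chr1:153549259-153549508 for S100A3 and chr1:153545807-153546056 for S100A4. The other 2 lie at chr1:152037005-152037254 for S100A11 and chr1:153613138-153613387 for S100A16.
S100A2: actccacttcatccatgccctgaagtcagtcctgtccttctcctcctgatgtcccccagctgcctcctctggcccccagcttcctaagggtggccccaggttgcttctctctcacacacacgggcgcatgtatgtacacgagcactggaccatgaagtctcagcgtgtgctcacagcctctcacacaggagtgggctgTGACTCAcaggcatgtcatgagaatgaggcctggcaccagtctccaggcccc
S100A3: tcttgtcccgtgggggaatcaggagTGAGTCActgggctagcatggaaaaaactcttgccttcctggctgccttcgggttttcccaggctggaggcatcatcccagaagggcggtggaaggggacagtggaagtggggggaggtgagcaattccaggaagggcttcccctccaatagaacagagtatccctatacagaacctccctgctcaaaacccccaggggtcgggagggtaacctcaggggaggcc
S100A4: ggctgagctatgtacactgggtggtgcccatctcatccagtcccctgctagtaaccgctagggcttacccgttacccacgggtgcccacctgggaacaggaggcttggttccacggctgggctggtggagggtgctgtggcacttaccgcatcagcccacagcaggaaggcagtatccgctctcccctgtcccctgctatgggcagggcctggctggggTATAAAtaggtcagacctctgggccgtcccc
S100A11: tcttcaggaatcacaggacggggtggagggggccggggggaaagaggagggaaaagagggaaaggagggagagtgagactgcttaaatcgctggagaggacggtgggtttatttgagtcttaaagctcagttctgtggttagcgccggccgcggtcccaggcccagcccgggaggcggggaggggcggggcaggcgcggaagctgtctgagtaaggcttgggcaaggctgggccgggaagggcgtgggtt
S100A16: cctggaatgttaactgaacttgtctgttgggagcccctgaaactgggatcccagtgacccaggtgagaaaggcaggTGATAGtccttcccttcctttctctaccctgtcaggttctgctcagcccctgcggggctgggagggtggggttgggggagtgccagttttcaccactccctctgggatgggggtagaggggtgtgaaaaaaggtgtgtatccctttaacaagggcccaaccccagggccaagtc

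S100A2 and S100A3 each held 1 AP-1 motif, whose first base lay at -52 and -225 from the start. The stretch before the other start of S100A2 held none, and neither did those of the other members. S100A4 had a TATA box, the letters TATAAA, at -31. S100A9 had those letters as well, at -29, and so did S100A8, at -29 and -126 from separate starts. Both of these genes were below the detection level. Among 35116 RefSeq promoter windows of the same length, 4.20% held an AP-1 motif and 10.7% a TATA box. Of the 10 members, S100A16 alone had a GATA motif in any of its windows, at -174 of its upstream start. The motif was taken as the letters GATA with an adenine or thymine before them and a purine after them. Of all windows 22.3% held it, which is a share of windows and not of genes. Of the other S100 genes taken up below, S100A13 had a GATA motif at -194 and a TATA box at -29, from separate starts. S100A5 had an AP-1 motif at -17 of 1 of its starts. The windows of S100A6 and S100A10 each had 24 CG dinucleotides and that of S100A11 had 15, whereas those of S100A2, S100A3 and S100A4 had 3 to 7. The median over all windows was 11. The windows of S100A16, which rose, had 1 and 6. A link between the number of CG dinucleotides and the direction of change was not tested. All 10 members had an entry in the promoter table. These matches describe letters in a window and were not read as binding sites.

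The arrays resembled each other within a group. Over the 23785 probe sets tested, GFP control arrays correlated at 0.995 to 0.996, and GATA3 replicates 1 and 2 at 0.997. GATA3 replicate 3, whose raw file alone carries a different date in its name, correlated with those at 0.984 and 0.986. Its 75th percentile over all probe sets that were not controls was 7.78, against 7.97 to 8.04 on the other arrays. In the arrays labelled GATA3, GATA3 itself had a lower signal than in the control: its brightest probe set (209604_s_at) gave 9.37, 9.35 and 9.45 in the GFP control and 7.93, 7.94 and 7.32 in the arrays labelled GATA3. It fell by 1.66 on the log2 scale (SE 0.18, adjusted p 0.00238 by limma). Whether its probes read the introduced sequence is not given in the sources used here. All directions below are those of the labels. Of 5 markers of the line, VIM, CD44, EGFR, MSN and AXL, all were over the detection level. The oestrogen receptor gene ESR1 stayed at 4.02 on 5 of the 6 arrays by its brightest probe set, a repeated value that need not be signal. A dimmer ESR1 probe set was over the detection level on GATA3 replicate 3 alone, and its others were on none. PGR and FOXA1 were not over the detection level on any array. The summed level of 7 luminal markers was 14.41 to 14.49 on the log2 scale in the GFP control and 15.14 to 15.29 in the arrays labelled GATA3. EPCAM (2.16), KRT8 (0.60) and KRT18 (0.52) rose among them by these log2 differences (limma adjusted p 8.82e-05, 0.00908 and 0.000503). ERBB2, the remaining marker of that list, changed by -0.16 and did not pass (limma adjusted p 0.261). Of the 5 markers of the line, VIM fell by 0.32, MSN fell by 0.24 and EGFR rose by 0.33 (limma adjusted p 0.0158, 0.0342 and 0.0278). CD44 and AXL did not pass by their brightest probe sets. That of AXL read 12.78 and 13.05 on GATA3 replicates 1 and 2 and 14.28 on replicate 3. A dimmer AXL probe set fell by 0.43 (limma adjusted p 0.00577) and a dim CD44 probe set by 1.78 (limma adjusted p 0.0324). Neither gene had a probe set that passed higher. EGFR also rose by 0.74 and 0.42 by dimmer probe sets (limma adjusted p 0.00300 and 0.0136), and its other tested probe sets did not pass. A dim VIM probe set fell by 0.71 (limma adjusted p 0.0381). The losses that follow are those of the brightest probe sets. The VIM call was lost without GFP control replicate 1 or 2 (0.0618 and 0.0663) and without a filter on low values (0.0727). Those of MSN and EGFR were lost without 5 and 4 of the 6 arrays in turn (0.0580 to 0.0947 and 0.0824 to 0.0930) and without a filter (0.126 and 0.105). The MSN call was also lost with 75th percentile centring, without a variance trend, with the replicate block and with the raw file date as a covariate. That date sets GATA3 replicate 3 alone apart, so the covariate gives the same change as leaving out that array. The summed level of the 5 was 16.11 to 16.19 in the GFP control and 15.97 to 16.19 in the arrays labelled GATA3, highest on GATA3 replicate 3. The part of these shifts in the changes of the S100 genes was not tested.

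Of the 10 genes, 3 rose, 3 fell, 1 did not pass the test and 3 were not over the detection level on any array. S100A3 and S100A4 fell by close to 1 on the log2 scale and S100A2 by less. S100A11 and S100A16 rose by about as much as S100A2 fell, and S100A10 rose slightly. S100A6 did not pass by its brightest probe set. S100A8, S100A9 and S100A14 were not tested. Values are on the log2 scale after GCRMA, and detection was taken as a value over 4. Groups were compared by a limma fit, with p-values adjusted by Benjamini-Hochberg over all tested probe sets and a threshold of 0.05. The 9 tested probe sets of the members were over the detection level on all 6 arrays, so none entered through 1 group alone. In these bulk samples a change in the level per cell cannot be told apart from a change in the share of cells that express a gene.

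Among the members' 9 tested probe sets, 3 rose and 4 fell, so 7 changed, where 25.3% of all tested probe sets passed. Of all 23785, 11.3% passed higher and 14% passed lower. The groups did not overlap in 7 of them, against 46.0% of all tested probe sets. With 1 probe set per gene, 6 of 7 genes passed, against 29.3% of all 10814 genes tested (14.8% higher and 14.5% lower). The groups of 6 of these 7 genes did not overlap, against 49.5% of all genes. Of the 7, 1 was past the threshold and at least 2-fold, against 7.28% of all genes. The median of their absolute log2 changes was 0.53, against 0.21 over all genes tested. Their median signed change was -0.06, against -0.02.

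**Figure D1:**
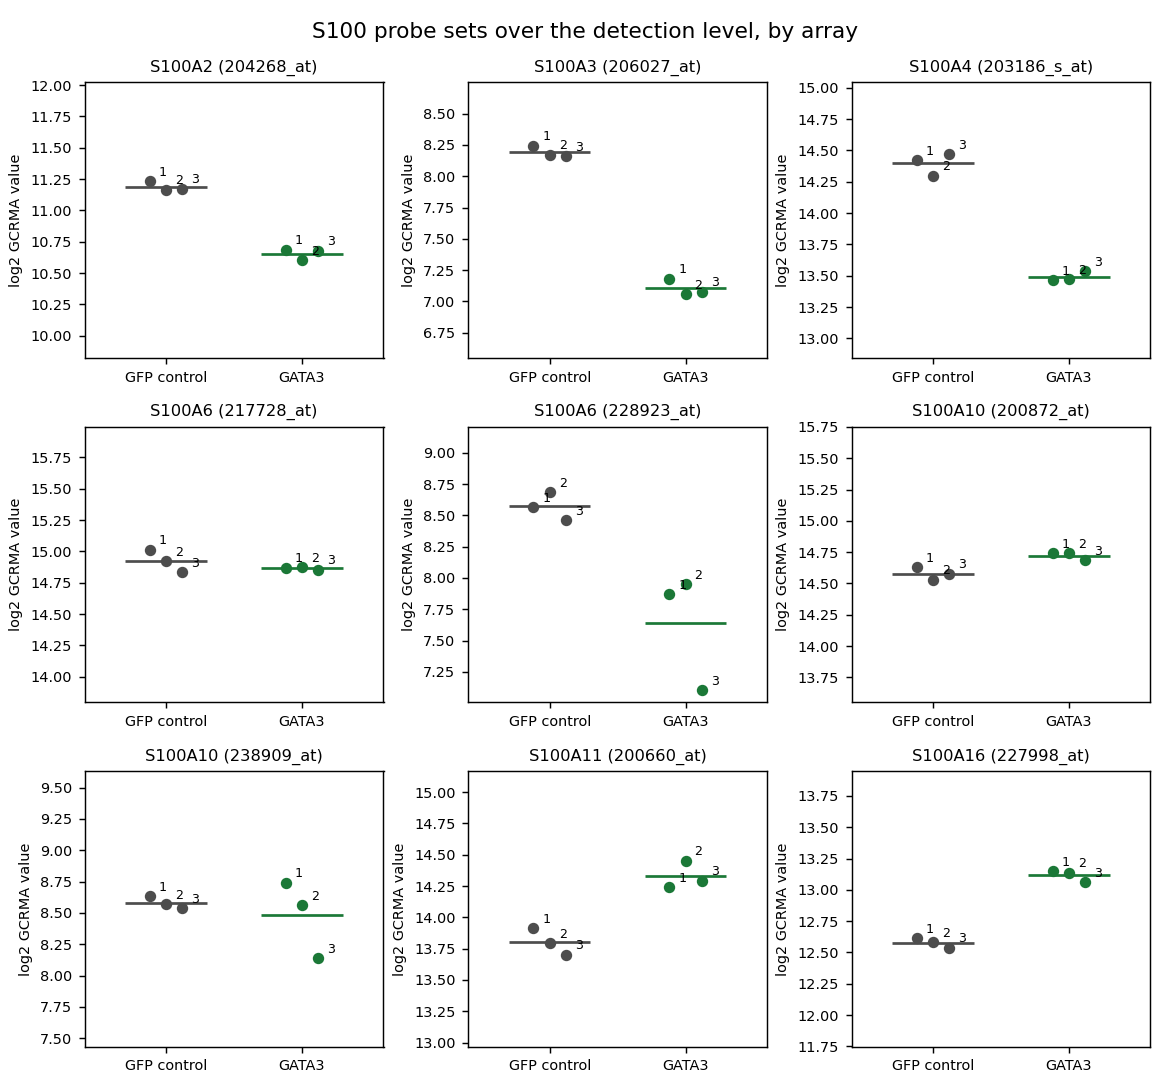
Log2 GCRMA value of each tested S100 probe set on each array, with the replicate number beside each point and a line at the group mean. Every panel spans the same 2.2 log2 units. The 3 arrays labelled GATA3 sit below the GFP control arrays for S100A2, S100A3 and S100A4 and above them for S100A11 and S100A16.

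S100A4, which binds non-muscle myosin and is used as a marker of mesenchymal cells, read 14.42, 14.30 and 14.47 in GFP control replicates 1 to 3. It read 13.47, 13.47 and 13.54 in the arrays labelled GATA3. The lowest control array thus lay above the highest array labelled GATA3. The change was -0.91 (SE 0.05; 95% interval -1.04 to -0.78), 1.88-fold lower, with a limma adjusted p of 0.000224. Its probe set (203186_s_at) carries the suffix for probes that may be shared between similar transcripts.

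S100A3, a zinc-binding S100 protein best known from the hair cuticle, had the largest change of the 10 genes. It read 8.24, 8.17 and 8.16 in the GFP control and 7.18, 7.06 and 7.08 in the arrays labelled GATA3. The arrays of each group lay within a span far narrower than the gap between the groups. The log2 change was -1.09 (SE 0.07; 95% interval -1.26 to -0.91), 2.12-fold lower, with a limma adjusted p of 0.000368.

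S100A2, a protein of basal epithelial cells, read 11.23, 11.17 and 11.17 in the GFP control and 10.69, 10.60 and 10.68 in the arrays labelled GATA3. Again no array of one group reached the other. It fell by 0.53 on the log2 scale (SE 0.04), 1.45-fold, with a limma adjusted p of 0.00081. The intervals of S100A2 (-0.64 to -0.43) and S100A4 (-1.04 to -0.78) did not overlap, and the difference between these changes was not tested.

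S100A16, a broadly expressed member, moved the other way. It read 12.61, 12.58 and 12.54 in the GFP control and 13.15, 13.14 and 13.06 in the arrays labelled GATA3. Each array labelled GATA3 lay above every control. The rise was 0.54 on the log2 scale (SE 0.04; 95% interval 0.44 to 0.63), 1.45-fold, with a limma adjusted p of 0.00048.

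S100A11, which pairs with annexin A1 and takes part in membrane repair and growth control of epithelial cells, rose as well. It read 13.91, 13.79 and 13.70 in the GFP control and 14.24, 14.45 and 14.29 in the arrays labelled GATA3. The groups did not overlap, although both were more spread than those of S100A16. The rise was 0.52 on the log2 scale (SE 0.08; 95% interval 0.33 to 0.72), 1.44-fold, with a limma adjusted p of 0.00633.

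S100A10, also called p11, does not bind calcium and joins annexin A2 in a complex at the cell surface that binds plasminogen. Its brightest probe set (200872_at) read 14.63, 14.53 and 14.58 in the GFP control and 14.74, 14.74 and 14.69 in the arrays labelled GATA3. The groups stood apart by less than 0.1 at their nearest arrays. The rise was 0.14 (SE 0.03), 1.11-fold, with a limma adjusted p of 0.0308. The call was lost without GFP control replicate 2 or 3 or GATA3 replicate 1 or 2, with adjusted p-values of 0.0887 to 0.0990, without a variance trend (0.0992), with the replicate block (0.0637) and without a filter on low values (0.104). Its other probe set (238909_at) read 8.63, 8.57 and 8.54 in the GFP control and 8.74, 8.56 and 8.14 in the arrays labelled GATA3, so GATA3 replicate 3 alone lay well below the rest. That change of -0.10 (95% interval -0.50 to 0.30) did not pass (limma adjusted p 0.665), and it was 0.070 without GATA3 replicate 3. With the mean of both probe sets the log2 change of S100A10 was 0.02 (limma adjusted p 0.867).

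S100A6, or calcyclin, binds the calcyclin-binding protein CACYBP and annexins. Its brightest probe set (217728_at) read 15.01, 14.92 and 14.84 in the GFP control and 14.87, 14.87 and 14.85 in the arrays labelled GATA3. The groups overlapped, and the change of -0.06 had a 95% interval of -0.18 to 0.06 (limma adjusted p 0.394). Its dimmer probe set (228923_at) read 8.57, 8.69 and 8.46 against 7.87, 7.95 and 7.11, with GATA3 replicate 3 the lowest of all. It fell by 0.93 on the log2 scale (SE 0.24), 1.90-fold, with a limma adjusted p of 0.0404. Without GATA3 replicate 3 the change was -0.66 (adjusted p 0.00759), and without any 1 of the 5 other arrays the call was lost (0.0529 to 0.132). Testing every probe set, with no filter, ended it too (0.154). With the mean of both probe sets the log2 change of S100A6 was -0.49 and passed (limma adjusted p 0.0273), which makes 4 members lower under that rule. The probe sets of S100A6 thus differed in their calls, and which transcripts each reads is not given in the sources used here.

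S100A8 and S100A9 form calprotectin, the abundant calcium and zinc binding complex of neutrophils and monocytes that inflamed or stressed epithelia can also make. Their 3 probe sets read 2.16, the floor of the GCRMA values, on all 6 arrays. S100A14, an epithelial member, read 2.16 on 5 arrays and 2.27 on GATA3 replicate 3. These genes were not detectable on these arrays in either group, and no fold is given. Of 10 markers of myeloid cells, 9 were not over the detection level on any array. The exception was FPR1, which fell from 4.90 ± 0.20 to 4.24 ± 0.19 (SD, n = 3; limma adjusted p 0.0233). Its call was lost without GFP control replicate 2 or 3 or GATA3 replicate 1 or 2 (0.0529 to 0.0668) and without a filter (0.0978). A second FPR1 probe set (205118_at) read 2.16 on all 6 arrays. The summed level of that list was 6.08 to 6.24 on the log2 scale in the GFP control and 5.85 to 5.94 in the arrays labelled GATA3. With the 9 other genes near the floor, this sum follows FPR1 and is not a separate result. Of 6 markers of differentiated keratinocytes with a probe set, 4 were not over the detection level on any array, among them IVL and LORICRIN, and KRT10 and FLG did not pass.

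Of 10 other S100 genes with 13 probe sets, 3 had a tested probe set, 1 rose, 1 fell and 1 did not pass. S100A5 read 5.06, 5.04 and 5.13 in the GFP control and 3.89, 4.52 and 4.24 in the arrays labelled GATA3. It fell by 0.86 on the log2 scale (SE 0.16, limma adjusted p 0.0147), close to the detection level, with 1 array under it. That call was lost without any 1 GFP control array (0.0539 to 0.0622) and without a filter on low values (0.0695). S100A13, known for the release of growth factors that lack a signal peptide, read 11.04, 10.96 and 10.86 against 11.38, 11.25 and 11.13. It rose by 0.30 (SE 0.08, limma adjusted p 0.0459), and its call was lost without any 1 array other than GATA3 replicate 3 (0.0709 to 0.138), without a variance trend (0.0590) and without a filter (0.151). Its other probe set read 4.84 to 4.85 on the GFP control arrays and 4.27, 4.85 and 6.16 on those labelled GATA3 (change 0.24, limma adjusted p 0.725). S100A7A read 6.18 to 6.23 on 5 arrays and 6.45 on GATA3 replicate 3, a value nearly repeated across arrays that need not be signal, and its other probe set lay at the floor. S100P was over the detection level on 1 array only, and S100A1, S100A7, S100A12, S100B, S100G and S100Z on none.

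Set in their order on chromosome 1, the tested S100 genes that fell lay side by side in 1 run. The protein-coding genes of RefSeq run S100A6, S100A5, S100A4, S100A3, S100A2, S100A16, S100A14, S100A13 and S100A1 with no other gene between them. S100A5, S100A4, S100A3 and S100A2, next to each other, all fell, by 0.86, 0.91, 1.09 and 0.53 on the log2 scale. S100A16 and S100A13, which follow, rose by 0.54 and 0.30. On the other side of the run, S100A6 (-0.06 by its brightest probe set, with a fall of 0.93 by its other) and S100A7A (0.06) did not pass by their brightest probe sets. S100A10 and S100A11 lie apart from these, at the far side of the skin differentiation genes, and rose by 0.14 and 0.52. This order was looked at after the values had been seen and was not tested. The calls of S100A5, S100A13 and S100A10 were lost under the settings given above.

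**Figure D2:**
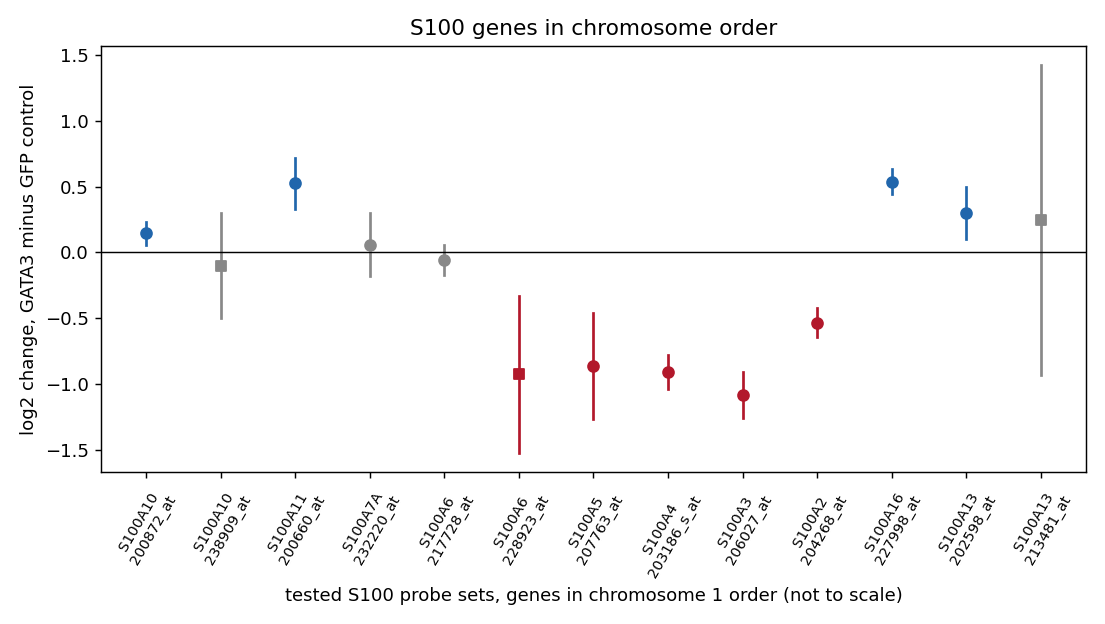
Log2 change of every tested S100 probe set with its 95% interval, genes in chromosome 1 order and not to scale. Circles are the brightest tested probe set of a gene and squares its other probe set; red passed lower, blue passed higher and grey did not pass. S100A5, S100A4, S100A3 and S100A2 lie below 0 side by side, and S100A16 and S100A13 above it.

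Genes of the same chromosome region that are not S100 genes were listed as well. Of 20 with a probe set, 9 were tested, none rose, 2 fell and 7 did not pass, with a median change of -0.03. Over all genes tested, 29.3% passed. THEM4, a thioesterase gene next to S100A10, fell by 0.42 (limma adjusted p 0.00999). GATAD2B, a subunit gene of the NuRD chromatin complex, fell by 0.59 (limma adjusted p 0.0225). Its call was lost without GFP control replicate 2 or 3 or GATA3 replicate 1 or 2 (0.0521 to 0.0839). It was also lost without a filter on low values (0.0747) and with the replicate block (0.0513). The 3 genes that follow S100A1, CHTOP, SNAPIN and ILF2, changed by 0.09, -0.03 and -0.05 and did not pass. SLC27A3, further along, had a larger change of 1.06, from 4.53 to 5.59, that did not pass either (limma adjusted p 0.0534). SPRR2B, a cornified envelope gene of the region that the list did not hold, rose by 0.53 near the detection level, from 4.08 to 4.61 (limma adjusted p 0.0237). By a second CHTOP probe set (202560_s_at) the change was -0.31 and passed (limma adjusted p 0.00932).

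Among proteins that S100 proteins bind, ANXA6 and ANXA1 had the largest changes that passed by the brightest probe set of each gene. Of 11 genes with a probe set, all 11 were tested, 2 rose, 2 fell and 7 did not pass, with a median of -0.05, where 29.3% of all genes tested passed. ANXA6, a partner of S100A6, read 12.12, 12.10 and 12.15 in the GFP control and 10.45, 10.57 and 10.58 in the arrays labelled GATA3. It fell by 1.59 (SE 0.05), 3.01-fold, with a limma adjusted p of 2.67e-05. ANXA1, the partner of S100A11, rose by 0.44 (SE 0.03; limma adjusted p 0.000351), from 14.45 ± 0.04 to 14.89 ± 0.02 (SD, n = 3). ANXA2, the partner of S100A10, rose by 0.17 (SE 0.03; limma adjusted p 0.0101), and 2 more of its probe sets rose by 0.19 and 0.17. That call was lost without a variance trend (0.0555), and another, dim ANXA2 probe set did not pass. AHNAK, a scaffold bound by the complex of S100A10 and annexin A2, fell by 0.36 (limma adjusted p 0.0130), a call lost without GFP control replicate 2 or 3 (adjusted p at most 0.0569) and with the replicate block (0.0585). MYH9, the myosin heavy chain that S100A4 binds, changed by -0.05 (limma adjusted p 0.596), and CACYBP by -0.02 (limma adjusted p 0.800), though 1 dimmer CACYBP probe set fell by 0.18 (limma adjusted p 0.0180). Dimmer probe sets of genes that did not pass by their brightest also changed. SUGT1 fell by 1.07 and 0.81 by a pair of them (limma adjusted p 0.0248 and 0.0193), DLC1 rose by 0.85 by another (0.00570) and ANXA11 fell by 0.46 (0.0367).

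The difference between a member and its partner, or another member, was also taken within each array. S100A10 minus ANXA2 was -0.14 ± 0.05 in the control group and -0.16 ± 0.07 in the other (SD, n = 3). These overlapped (exact permutation test, two-sided, p = 0.6). S100A11 minus ANXA1 was -0.65 ± 0.08 and -0.56 ± 0.09 (SD, n = 3; exact permutation test, two-sided, p = 0.3). After adjustment over the 3 pairs these p-values were 0.6 and 0.45. For neither pair was a difference between the changes of its genes shown, and the 3 arrays per group limit what could be. S100A4 minus S100A6, by the brightest probe set of each, went from -0.53 ± 0.14 to -1.38 ± 0.05 (SD, n = 3), and the groups did not overlap. The dimmer S100A6 probe set fell by 0.93, about as far as S100A4 (0.91), and was not used in this pair. The pair's two-sided exact permutation p = 0.1 is the smallest that 3 arrays against 3 allow, and 0.3 after adjustment over the 3 pairs. For S100A8 with S100A9 and S100A14 with S100A16 no difference was taken, since a gene was not over the detection level.

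Receptors for released S100 proteins went both ways. Of 7 genes with a probe set, 5 were tested, 2 rose, 1 fell and 2 did not pass, with a median of 0.17, beside the same 29.3% of all genes. MCAM, an adhesion receptor that binds S100A8 and S100A9, rose by 1.38 (SE 0.12), 2.60-fold, from 8.51 ± 0.19 to 9.89 ± 0.13 (SD, n = 3; limma adjusted p 0.00110). BSG, a receptor of S100A9 known as EMMPRIN, fell by 0.51 (SE 0.07; limma adjusted p 0.00405). TLR4, a receptor of innate immunity, rose by 0.91 by its brightest probe set (limma adjusted p 0.0332), from 6.68, 6.94 and 6.85 to 8.02, 7.94 and 7.26. That call was lost without any 1 array other than GATA3 replicate 3 (0.0849 to 0.108), with the replicate block (0.0715) and without a filter (0.128), and of its other probe sets none passed. AGER, which encodes RAGE, and CD36 were not over the detection level on any array.

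Other genes with EF-hand motifs gave a comparison outside the family. Of 18 with a probe set, 15 were tested, 1 rose, 5 fell and 9 did not pass, with a median of -0.25. EFHD2 fell by 0.68 (SE 0.06, limma adjusted p 0.00123), though a dimmer EFHD2 probe set changed by -0.13 and did not pass (limma adjusted p 0.272). RCN1, a reticulocalbin of the endoplasmic reticulum, fell by 0.39 (SE 0.04, limma adjusted p 0.00255). NUCB2, the nesfatin precursor gene, fell by 0.66, SRI, the sorcin gene, by 0.33 and RCN2 by 0.27, and PLS3, an actin-bundling gene, rose by 0.25. The calls of these 4 were each lost without 4 or 5 of the 6 arrays in turn, with adjusted p-values of 0.0522 to 0.120. They were also lost without a filter on low values (0.103 to 0.140). Those of SRI, RCN2 and PLS3 were lost without a variance trend, and that of RCN2 with the replicate block and with the raw file date as a covariate. The date covariate gives the same change as leaving out GATA3 replicate 3. So 6 of these 15 genes passed, and 6 of the 7 tested S100 members (85.7%), against 29.3% of all genes tested. No difference between these lists was tested.

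**Figure D3:**
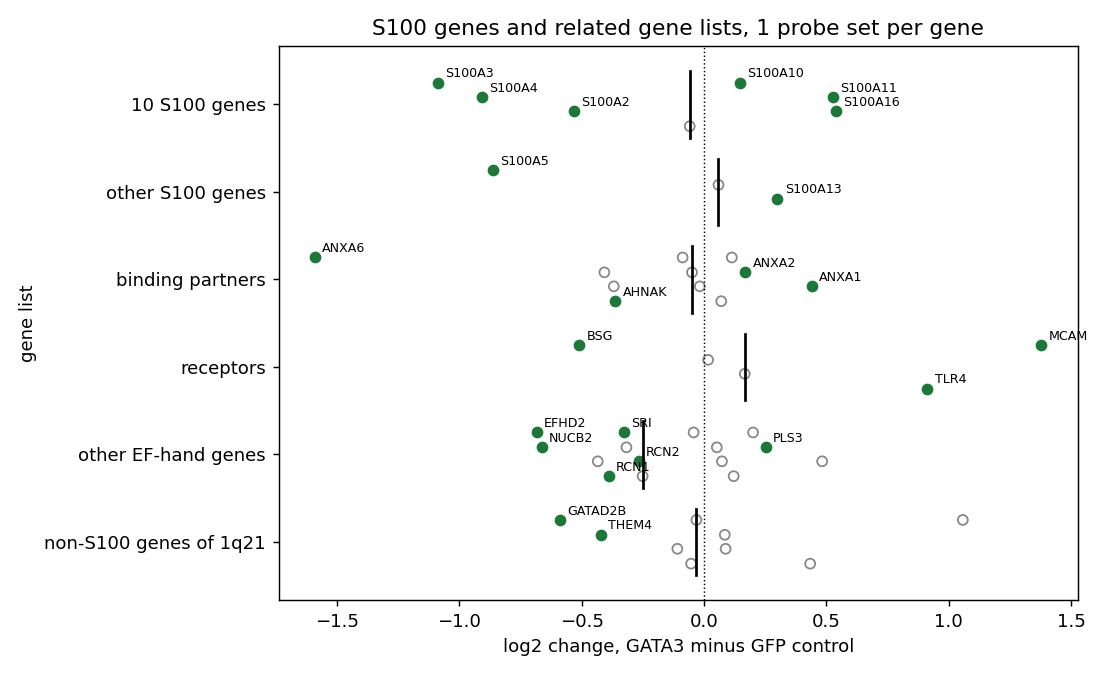
Log2 change of each tested gene by list, 1 probe set per gene. Filled green points passed the threshold and are named, open grey points did not, and the black line is the list's median. S100A3, S100A4 and S100A2 lie left of 0 and S100A10, S100A11 and S100A16 right of it, and ANXA6 and MCAM have the changes farthest from 0 among the partners and receptors.

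**Figure D4:**
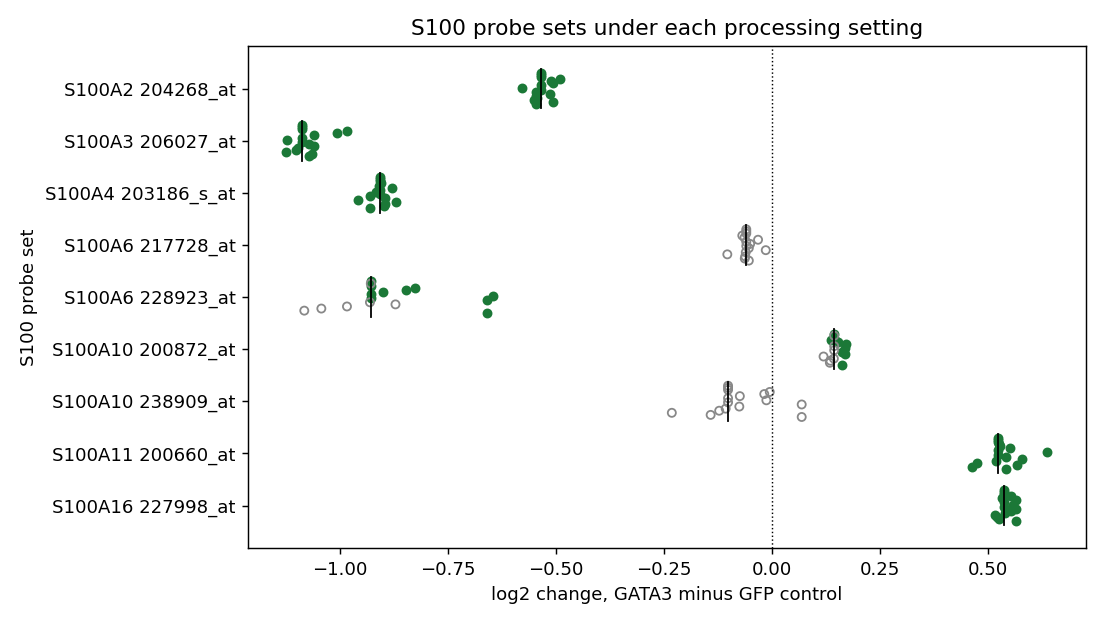
Log2 change of each tested S100 probe set in the main fit (black line) and under 15 alternatives. Filled green points passed the threshold and open grey points did not. S100A2, S100A3, S100A4, S100A11 and S100A16 passed under every setting plotted.

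The members' calls divided by how far they held. S100A2, S100A3, S100A4, S100A11 and S100A16 kept their direction and stayed past the threshold under all 15 alternatives plotted by setting. The change of S100A3 ranged from -1.12 to -0.98 there, that of S100A4 from -0.96 to -0.87 and that of S100A2 from -0.58 to -0.49. S100A11 ranged from 0.46 to 0.64 and S100A16 from 0.52 to 0.57. Within the 5 arrays that share a raw file date, that is without GATA3 replicate 3, the counts were again 3 probe sets higher and 4 lower.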

How the data were processed

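Total RNA was hybridised to 1 single-colour array per sample, 3 GFP control and 3 labelled GATA3, grouped by the labels. The values were deposited as log2 expression per probe set, made by the authors with GCRMA per the submitters' processing notes (its version is not stated in them). The log2 scale was read from their range, 2.16 to 15.8, since no header states it. GCRMA removes a background modelled on probe sequence, which puts dim probe sets at a floor of 2.16; a value over 4 that repeats across arrays need not be signal. Precision is limited by the number of arrays.

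The deposited values were taken unchanged. The 62 control probe sets were left out, and 23785 probe sets over 4 in at least 3 of 6 arrays were tested (30828 were not). Symbols came from the platform annotation (41091 probe sets with 1 symbol, 1801 with several, 11721 with none). The groups were compared with limma 3.58.1 in R 4.3.3 (lmFit, eBayes with an intensity trend, no covariates). For gene counts, the tested probe set of highest mean stood for its gene. Within-array differences used exact permutation tests. Every member was named, and up to 5 genes past the threshold of each list; others, such as MYH9, CHTOP and S100P, were chosen after seeing their values. The members and lists were chosen with earlier results of these data known. The fit was tested on simulated data. Alternatives changed the filter, scaling, variance trend, array weights, covariates, arrays and probe set choice.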

Additional observations from a re-analysis of the deposited data

How the results depend on the processing

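The numbers of S100 probe sets that passed were 2 to 3 higher and 3 to 4 lower over the 15 alternatives, and of S100 genes 2 to 3 higher and 2 to 4 lower over 17; with probe sets of suffix _at alone S100A4 was not measured (2 lower), and with the mean of all tested probe sets S100A6 passed as well (4 lower). Of all tested probe sets, 6027 passed in the main fit, 3613 without a filter on low values, 11837 with array weights (whose estimation did not converge) and 3688 to 7333 with 1 array left out. The second S100A10 probe set (238909_at) turned from -0.10 to 0.070 without GATA3 replicate 3 and with the raw file date as a covariate. Only GATA3 replicate 3 has the other date, so that covariate gives the same change as leaving this array out. It is not a separate check and cannot adjust for date. S100A10 minus ANXA2 turned from -0.024 to 0.018 without GATA3 replicate 3. The cause of these turns was not tested. Leaving out 1 array gave -0.231 to 0.070 for that probe set and -0.052 to 0.018 for that pair.

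With 1 array left out, other S100 genes numbered 0 to 1 higher and 0 to 1 lower, binding partners 1 to 2 lower, receptors 1 to 3 higher, other EF-hand genes 0 to 3 higher and 2 to 5 lower, and non-S100 genes of the region 0 to 1 higher and 1 to 2 lower. A fit with fewer arrays has less power. Same-numbered arrays of the groups share only a number: their deviations from the group means correlated at -0.13, 0.16 and -0.11, and not every array correlated best with its own number. With the replicate number as a block, 4128 probe sets passed, and the partners had 1 gene lower, the receptors 1 higher and the region's other genes 1 lower. Dim probe sets near the detection level, S100A5 among them, have the least certain changes.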
